A study of Mus musculus with 12 samples.

Results

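Expression of 10 genes of prostaglandin and leukotriene synthesis was followed in the meninges, the membranes around the brain, of mice with and without dextran sulfate sodium (DSS) colitis. They were picked by symbol from the count table: Alox5, Alox5ap, Lta4h, Ltc4s, Alox12, Alox15, Ptgs1, Ptgs2, Ptges and Hpgd. All 10 were found among 47747 symbols, and all 10 were among the 18593 that passed the filter on low counts. C57bl/6 mice were used, with 6 total RNA libraries in each group. The labels number the libraries but do not say that each is 1 animal, so "mice" below stands for libraries. The DSS group drank 2% DSS, a polymer that injures the colon lining, for 5 days and then plain water; the control group is labelled Control, and the protocol text, repeated for all 12 samples, names no other agent. All mice were killed after 6 days, without a statement of the day from which this was counted, and the sources used here name neither sex nor age.

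Both eicosanoid branches start from arachidonic acid, which phospholipases free from membranes. In the leukotriene branch, 5-lipoxygenase works with its activating protein, and the product is turned into leukotriene B4, a neutrophil attractant, or into the cysteinyl leukotrienes, which make vessels leak. In the prostaglandin branch, cyclooxygenases make prostaglandin H2, synthases turn it into the single prostanoids, and 15-hydroxyprostaglandin dehydrogenase inactivates prostaglandin E2. Prostaglandin E2 is known as a mediator of fever and pain, and the leukotriene branch is used mainly by myeloid cells and mast cells.

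Libraries held 9312788 to 41869997 counts. The samples carry colon as their source label while titles and extraction name meninges. Fibroblast markers summed to 10700 to 20900 CPM (counts scaled to the size of the library), against 1.16 to 8.66 CPM for 7 colon epithelium markers, of which Cdx2 had 0 counts in every library. Control replicate 2 stood apart with 59.8% of its counts on ribosomal RNA features (0.0430% to 9.23% elsewhere), and DSS replicate 2 with 172 CPM of skeletal muscle markers (10.2 to 23.5 CPM elsewhere). DSS replicate 3 had the fewest neutrophil marker counts of its group, at 263 CPM against 1070 to 1410 CPM. Of all tested genes 4.94% changed, 3.68% upward and 1.26% downward, in edgeR's quasi-likelihood fit at a Benjamini-Hochberg adjusted p under 0.05, the test used throughout.

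Among the 10 genes, 3 rose in DSS mice, 1 fell and 6 did not pass the test. The risen genes were Alox5 and Alox5ap, which encode the enzyme and activating protein of the first leukotriene step, and Ptgs1, which encodes cyclooxygenase 1. The fallen gene was Hpgd, which encodes the enzyme that inactivates prostaglandins. Ptgs2, the gene of the inducible cyclooxygenase 2, had the highest fitted difference of the 10, a log2 fold change of 0.96, but missed the threshold (adjusted p = 0.0619). The median log2 fold change of the 10 genes was 0.21, beside -0.02 over all tested genes, and 6 of the 10 had an unadjusted p under 0.05, against 3525 of the 18593.

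**Figure D1:**
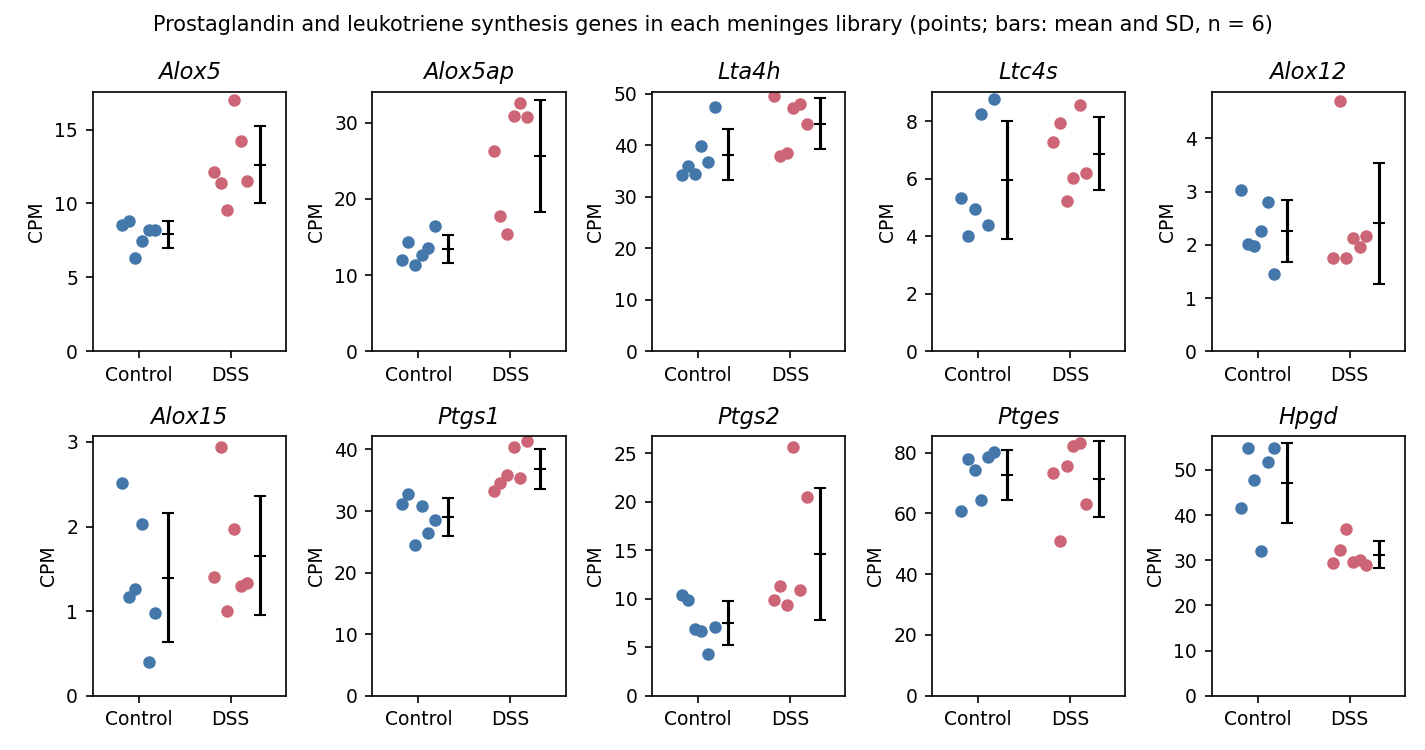
CPM of each of the 10 genes in every library, with Control and DSS groups on the horizontal axis, points in replicate order and bars for mean and SD (n = 6). In Alox5 and Ptgs1 all 6 DSS points lie above the Control points, Hpgd lies lower in DSS, and Ptgs2 spreads from 9.33 to 25.7 CPM among DSS mice.

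The 250 bases before the RefSeq start (GRCm38.p6) are shown for 3 of these genes and for Ptgs2, whose values the results turn on; 8 of the 10 genes had an entry, Alox5ap and Alox15 not. Capitals mark matches on either strand to the GC box GGGCGG, the TATA box TATAAA, the PU.1 core GAGGAA, the C/EBP motif TTGCNNAA, the NF-kB motif (GGG, any 5 bases, CC) and the CRE half-site TGACG. Alox5 lies on the minus strand and the others on the plus strand, and all are written 5′ to 3′ toward the gene.
Alox5 (chr6:116461179-116461428): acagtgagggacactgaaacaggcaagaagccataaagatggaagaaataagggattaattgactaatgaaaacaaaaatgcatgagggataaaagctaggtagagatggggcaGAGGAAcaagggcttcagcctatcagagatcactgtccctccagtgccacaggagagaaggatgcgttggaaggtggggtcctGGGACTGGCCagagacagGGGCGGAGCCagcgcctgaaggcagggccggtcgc
Ptgs1 (chr2:36230176-36230425): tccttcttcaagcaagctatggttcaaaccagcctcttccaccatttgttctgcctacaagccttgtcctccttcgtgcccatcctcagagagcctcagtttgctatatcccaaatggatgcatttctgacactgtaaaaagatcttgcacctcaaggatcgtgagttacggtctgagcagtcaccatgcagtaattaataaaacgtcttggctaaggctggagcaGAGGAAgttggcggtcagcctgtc
Ptgs2 (chr1:150099781-150100030): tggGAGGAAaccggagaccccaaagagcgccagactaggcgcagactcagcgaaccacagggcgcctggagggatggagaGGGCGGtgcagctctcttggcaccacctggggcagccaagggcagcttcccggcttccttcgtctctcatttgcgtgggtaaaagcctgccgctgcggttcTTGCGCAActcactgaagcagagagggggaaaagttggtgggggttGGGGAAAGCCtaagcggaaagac
Hpgd (chr8:56294302-56294551): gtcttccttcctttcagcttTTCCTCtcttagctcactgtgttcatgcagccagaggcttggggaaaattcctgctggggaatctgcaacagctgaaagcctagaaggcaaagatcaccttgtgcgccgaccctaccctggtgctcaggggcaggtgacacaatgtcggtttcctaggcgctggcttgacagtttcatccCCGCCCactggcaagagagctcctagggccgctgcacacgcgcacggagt
All 4 windows held the PU.1 core, a motif that 23.3% of 32851 promoter windows of this length hold. The core was also in the windows, not shown, of Alox12, Lta4h and Ptges, but not of Ltc4s. These genes did not pass the test, so the core was not particular to the changed members. The GC box was in Alox5, Ptgs2 and Hpgd (32.7% of windows) and the NF-kB motif in Alox5 and Ptgs2 (45.8%). In Alox5 a GC box from -35 to -30, counted back from the base before the start, overlaps a match to the NF-kB motif. The C/EBP motif was in Ptgs2, from -69 to -62 (9.56% of windows). The TATA box and the CRE half-site (12.4% and 17.8% of windows) had no match in these 4 windows. The matches describe letters, not sites of binding.

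Transcripts for the first step of leukotriene synthesis rose. Alox5 (GENCODE M21, GRCm38, chromosome 6, 116410077 to 116461178) encodes 5-lipoxygenase, which oxidises arachidonic acid. Its CPM was 6.29 at the lowest, 8.23 at the median and 8.80 at the highest in controls, and 9.57, 11.8 and 17.0 in DSS mice. All 6 DSS libraries lay above every control, a separation seen in 2.23% of all tested genes. Group means were 7.92 ± 0.920 CPM in controls and 12.6 ± 2.60 CPM in DSS mice (SD, n = 6). By edgeR Alox5 rose 1.59-fold, a log2 difference of 0.67 (SE 0.13, adjusted p = 0.00930).

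Alox5ap (chromosome 5, 149264767 to 149288153) encodes the membrane protein that presents arachidonic acid to 5-lipoxygenase. In controls its CPM was 11.3, 13.1 and 16.4 at the lowest, median and highest, and in DSS mice 15.4, 28.5 and 32.6. Only DSS replicate 3 lay within the control range, and DSS replicate 2 was next, at 17.7 CPM. Group means were 13.4 ± 1.84 CPM in controls and 25.6 ± 7.34 CPM in DSS mice (SD, n = 6). By edgeR Alox5ap rose 1.91-fold, a log2 difference of 0.93 (SE 0.18, adjusted p = 0.00718). Both calls were kept under all 20 other settings, with log2 fold changes from 0.57 to 0.74 for Alox5 (adjusted p from 0.000100 to 0.0223) and from 0.85 to 1.05 for Alox5ap (adjusted p from 1.18e-05 to 0.0227). The antisense gene Gm19719, which overlaps Alox5ap, had 2 to 14 counts per library against 126 to 932 for Alox5ap.

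The enzymes that follow did not pass the test. Lta4h (chromosome 10, 93453411 to 93484875) encodes the hydrolase that makes leukotriene B4. It lay between 34.3 and 47.4 CPM in controls (median 36.4) and between 37.9 and 49.5 CPM in DSS mice (median 45.7). The ranges overlapped, although all 6 DSS libraries were above the control median (log2 difference 0.21, SE 0.10, adjusted p = 0.241). Ltc4s (chromosome 11, 50236461 to 50238616) encodes the synthase of leukotriene C4, the first cysteinyl leukotriene. It lay between 4.02 and 8.78 CPM in controls (median 5.14) and between 5.22 and 8.58 CPM in DSS mice (median 6.73). The Ltc4s ranges overlapped, although here too all 6 DSS libraries were above the control median (log2 difference 0.19, SE 0.20, adjusted p = 0.690). The 95% intervals, 0.03 to 0.40 for Lta4h and -0.21 to 0.59 for Ltc4s, do not show that either was unaltered. The antisense gene Gm26542 overlaps Ltc4s and had 4 to 25 counts per library, against 48 to 270 for Ltc4s.

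The other lipoxygenase genes were low and variable. Alox15 (chromosome 11, 70344152 to 70352031) encodes the leukocyte-type lipoxygenase of macrophages and eosinophils. It had 10 to 117 counts per library, or 0.400 to 2.52 CPM in controls and 0.997 to 2.94 CPM in DSS mice. Alox12 (chromosome 11, 70241457 to 70255353) encodes the platelet-type lipoxygenase, and lay between 1.46 and 3.04 CPM in controls and between 1.75 and 4.70 CPM in DSS mice. In both genes the highest DSS value came from DSS replicate 2, the library with the high skeletal muscle markers, whose part in these values was not tested. Log2 differences were 0.20 (SE 0.38) for Alox15 and 0.06 (SE 0.26) for Alox12 (adjusted p = 0.849 and 0.948). Without DSS replicate 2 both signs turned, to -0.01 and -0.21, and neither passed (adjusted p = 0.992 and 0.599). Platelet markers summed to 5.24 to 9.80 CPM in controls and 6.65 to 9.77 CPM in DSS mice, and 0 of the 3 that could be tested changed.

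In the prostaglandin branch, Ptgs1 rose slightly and evenly, and Ptgs2 had a wider spread and did not pass. Ptgs1 (chromosome 2, 36230426 to 36252272) encodes the constitutive form. Its CPM was 24.4, 29.7 and 32.7 at the lowest, median and highest in controls and 33.2, 35.6 and 41.3 in DSS mice. The groups did not overlap, but DSS replicate 1 at 33.2 CPM was close to Control replicate 2 at 32.7 CPM. Group means were 29.0 ± 3.16 CPM in controls and 36.8 ± 3.31 CPM in DSS mice (SD, n = 6). By edgeR Ptgs1 rose 1.27-fold, a log2 difference of 0.34 (SE 0.08, adjusted p = 0.0305). The call was lost, with 1 library left out each time, without Control replicate 3, 5 or 6 (adjusted p = 0.0602, 0.0751 and 0.0524) and without DSS replicate 4 or 6 (0.0796 and 0.0792). The log2 fold change stayed between 0.31 and 0.40 under all 20 other settings.

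Ptgs2 (chromosome 1, 150100031 to 150108227) encodes the form induced by cytokines and injury. Its CPM in controls was 4.32 at the lowest, 6.94 at the median and 10.4 at the highest, and in DSS mice 9.33, 11.1 and 25.7. DSS replicates 4 and 6 stood high, at 25.7 and 20.5 CPM, while the other 4 lay between 9.33 and 11.3 CPM, close to the upper controls. Means were 7.52 ± 2.26 and 14.6 ± 6.81 CPM (SD, n = 6), a log2 difference of 0.96 (SE 0.28, edgeR adjusted p = 0.0619). Without DSS replicate 4 the log2 fold change was 0.73 (adjusted p = 0.144), and without DSS replicate 6 it was 0.84 (adjusted p = 0.143). It passed the threshold when Control replicate 1, or DSS replicate 2 or 3, was left out (adjusted p = 0.0487, 0.0478 and 0.0458) and with the DESeq2 Wald test (adjusted p = 0.00779).

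Ptges (chromosome 2, 30889471 to 30929863) encodes the inducible microsomal prostaglandin E synthase, which acts on the cyclooxygenase product. It did not pass the test, with 60.7, 76.1 and 80.3 CPM at the lowest, median and highest in controls and 50.8, 74.4 and 83.2 CPM in DSS mice. The ranges overlapped, and DSS replicate 2 was the lowest library. The log2 difference was -0.03 (SE 0.12; adjusted p = 0.947), with a 95% interval from -0.25 to 0.20.

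Hpgd (chromosome 8, 56294585 to 56321043), whose product, 15-hydroxyprostaglandin dehydrogenase, ends prostaglandin action, was the member that fell. Its CPM was 32.1, 49.7 and 54.9 at the lowest, median and highest in controls, and 29.0, 29.8 and 36.8 in DSS mice. The groups overlapped, and 0.823% of all tested genes had every DSS library below every control. In 4 of 6 DSS libraries Hpgd lay below the lowest control, Control replicate 4, and all 6 lay below the control median. Group means were 47.1 ± 8.91 CPM in controls and 31.2 ± 2.98 CPM in DSS mice (SD, n = 6). By edgeR Hpgd fell to 0.662 of the control level, a log2 difference of -0.60 (SE 0.12, adjusted p = 0.0103). The call was kept under all 20 other settings, with log2 fold changes from -0.68 to -0.53 and adjusted p from 0.000154 to 0.0308.

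**Figure D2:**
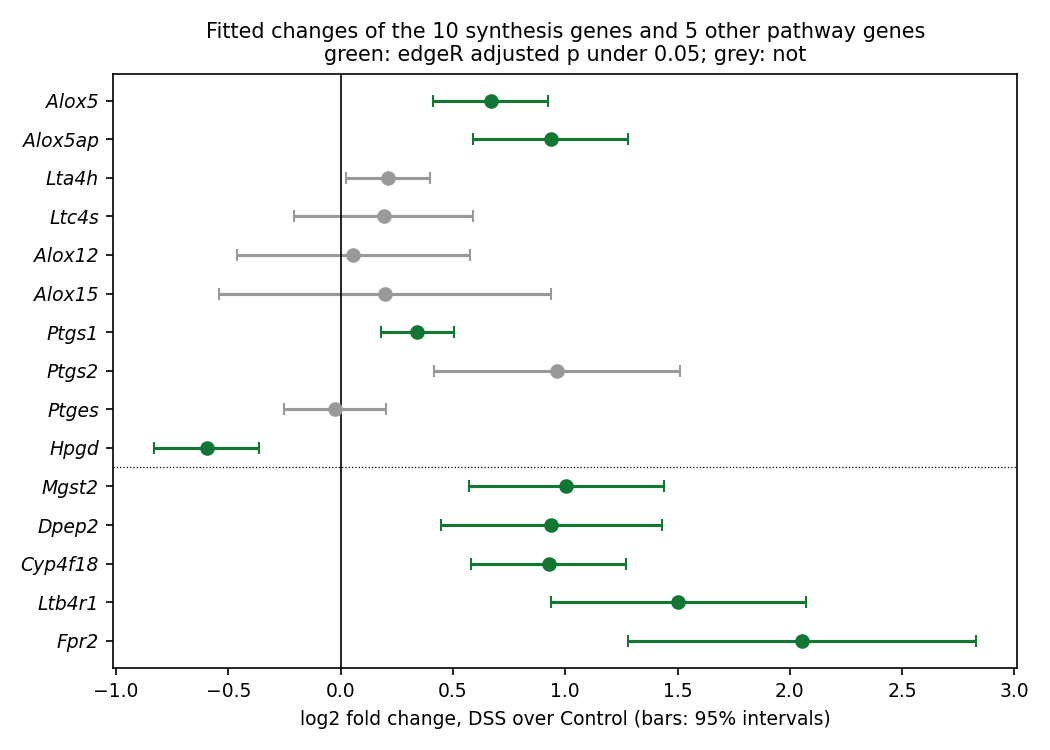
Log2 fold change of DSS over Control for the 10 synthesis genes (above the dotted line) and the 5 other pathway genes that passed the test (below it). Bars are 95% intervals from the normal quantile, somewhat narrower than the test implies. Green points passed at an adjusted p under 0.05: Alox5, Alox5ap and Ptgs1 to the right of 0, Hpgd to the left, and the other 5 to the right.

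Counts per kilobase of exon, as CPM per kilobase, allow levels of different genes to be ordered. In controls Hpgd was highest, at 28.0 ± 5.29 CPM per kilobase, followed by Ptges at 18.5 ± 2.07, Alox5ap at 9.44 ± 1.29, Ptgs1 at 7.47 ± 0.813, Lta4h at 6.25 ± 0.814 and Ltc4s at 5.88 ± 2.02 (SD, n = 6). Alox5 at 1.93 ± 0.224 and Ptgs2 at 1.64 ± 0.494 came next, then Alox15 at 0.568 ± 0.311 and Alox12 at 0.553 ± 0.142 CPM per kilobase. Each of the first 3 was above its follower in 6 of 6 control libraries. Lta4h and Ltc4s, Alox5 and Ptgs2, and Alox15 and Alox12 kept their order in 4 of 6 control libraries each, within the spread between mice. In DSS mice the 3 most abundant genes lay together: 18.5 ± 1.77 for Hpgd, 18.1 ± 3.15 for Ptges and 18 ± 5.17 CPM per kilobase for Alox5ap. There, Hpgd was above Ptges, and Ptges above Alox5ap, in 3 of 6 libraries each.

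Ratios within a library do not depend on how libraries are scaled. The ratio of Ptges to Hpgd, in counts per kilobase, ran from 0.610 to 0.860 in controls (median 0.638) and from 0.676 to 1.19 in DSS mice (median 0.998). In 5 of 6 DSS libraries it was above every control. This ratio carries the fall of Hpgd and is not separate from it. Alox5ap over Alox5 ran from 4.07 to 5.76 in controls and from 4.5 to 7.69 in DSS mice, and 3 of 6 DSS libraries were above every control. Ptgs2 over Ptgs1 ran from 0.138 to 0.282 in controls and from 0.220 to 0.539 in DSS mice, with DSS replicates 4 and 6 above every control, so Ptgs1 was the more abundant cyclooxygenase transcript in every library. Alox5ap over Ltc4s, the first step against the cysteinyl branch, ran from 1.09 to 2.56 in controls and from 1.59 to 3.65 in DSS mice, and 4 of 6 DSS libraries were above every control. Lta4h over Ltc4s, which sets the B4 branch against the cysteinyl branch, overlapped throughout, from 0.8 to 1.49 in controls and from 0.794 to 1.3 in DSS mice. No test was run on these ratios.

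**Figure D3:**
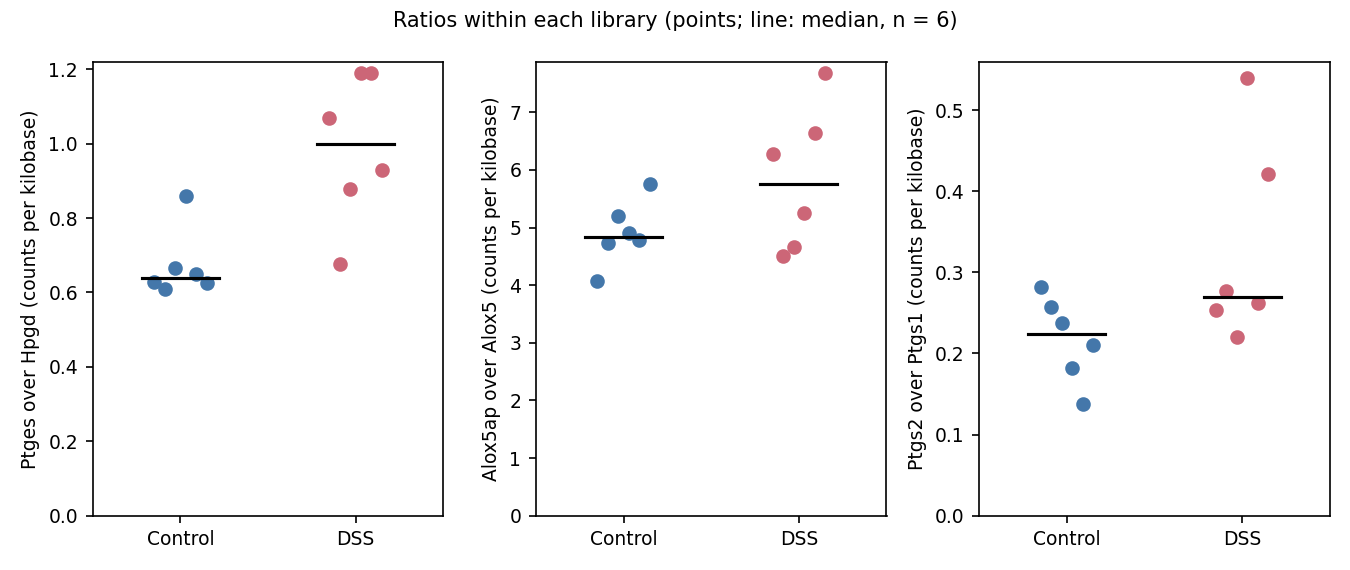
Ratios of counts per kilobase within each library for Ptges over Hpgd, Alox5ap over Alox5 and Ptgs2 over Ptgs1, in Control and DSS mice (points in replicate order; lines are medians, n = 6). Ptges over Hpgd moves from a median of 0.638 to 0.998, and 2 DSS points stand high in Ptgs2 over Ptgs1.

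Genes of the surrounding pathway were taken from 7 lists of 67 symbols, of which 65 were in the table and 49 could be tested. Of these 49, 5 rose and 0 fell by edgeR's test, where 3.68% of all tested genes rose and 1.26% fell. The median log2 difference was 0.08, beside -0.02 over all tested genes. An unadjusted p under 0.05 was seen in 16, against 3525 of all 18593 tested genes. DESeq2 called 7 upward and 0 downward, against 1036 upward and 515 downward among the 18593. The 5 called by edgeR belong to leukotriene handling or to receptors for leukotrienes and related lipids. The 2 that DESeq2 added were Cysltr1, a leukotriene receptor gene, and Tbxas1, a prostanoid synthase gene.

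Ltb4r1, the high-affinity receptor gene for leukotriene B4 on neutrophils and other leukocytes, lay between 0.671 and 1.6 CPM in controls (median 0.843) and between 1.24 and 4.19 CPM in DSS mice (median 3.00). It was above every control in 5 of 6 DSS libraries (log2 difference 1.5, SE 0.29, adjusted p = 0.00824). Fpr2, which encodes a formyl peptide receptor that also binds lipoxin, lay between 0.629 and 2.01 CPM in controls and between 1.40 and 7.65 CPM in DSS mice (log2 difference 2.05, SE 0.39, adjusted p = 0.00837). DSS replicate 3 was the lowest DSS library for both receptors. The 6 tested genes of this receptor list had a median log2 fold change of 0.51, and the cysteinyl leukotriene receptor gene Cysltr1 did not pass (log2 difference 0.47, SE 0.16, adjusted p = 0.105; named after its values were seen, and called by DESeq2). Cmklr1, a receptor gene for chemerin and resolvin E1 and the most abundant of the list, lay at 23.5 ± 4.26 CPM in controls and 28.1 ± 4.2 CPM in DSS mice (SD, n = 6) and did not pass (adjusted p = 0.285).

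In leukotriene processing, 3 of 9 tested genes rose, against 3.68% of all tested genes. Cyp4f18, which encodes the neutrophil enzyme that inactivates leukotriene B4, lay between 2.07 and 3.71 CPM in controls and between 4.55 and 7.22 CPM in DSS mice, with no overlap (log2 difference 0.93, SE 0.18, adjusted p = 0.00770). Mgst2, whose product can also make leukotriene C4, had only 5 to 39 counts per library. It lay between 0.449 and 0.715 CPM in controls and between 0.758 and 1.6 CPM in DSS mice (log2 difference 1.00, SE 0.22, adjusted p = 0.0174). The Mgst2 call was kept with any 1 library left out (adjusted p up to 0.0496). It was lost with no filter except at least 1 count (adjusted p = 0.0518). Dpep2, a dipeptidase gene of cysteinyl leukotriene conversion, lay between 0.989 and 1.79 CPM in controls and between 1.40 and 4.19 CPM in DSS mice (log2 difference 0.94, SE 0.25, adjusted p = 0.0457). The Dpep2 call was kept without DSS replicate 2 or 3 and lost without each of the other 10 libraries (adjusted p up to 0.114). The most abundant genes per kilobase in this list, Mgst3 and Dpep1, did not pass (log2 fold change -0.19 and 0.35, adjusted p = 0.511 and 0.339).

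No gene of the phospholipase and prostanoid lists passed the edgeR test with all libraries. Among 9 tested phospholipase A2 genes 0 changed. Pla2g4a, the cytosolic enzyme that frees arachidonic acid, lay between 27.1 and 33.7 CPM in controls and between 30.5 and 41.9 CPM in DSS mice (log2 difference 0.22, SE 0.08, adjusted p = 0.145), and Pla2g5, a secreted form, had a log2 difference of -0.21 (SE 0.20; adjusted p = 0.648). Of 9 other prostanoid synthase genes 0 changed by edgeR with all 12 libraries. Tbxas1, the thromboxane synthase gene, came near, with 9.98 to 12.8 CPM in controls and 11.1 to 18.7 CPM in DSS mice (log2 difference 0.38, SE 0.12, adjusted p = 0.0717; named after its values were seen). It was called upward by DESeq2, by limma-voom, when DSS replicate 2 was left out, and when both replicates 2 were. Cbr1, a carbonyl reductase gene of the same list, leaned downward, with 15.3 to 26 CPM in controls and 12 to 19 CPM in DSS mice. All 6 DSS libraries lay below its control median of 21 CPM (log2 difference -0.43, SE 0.15, edgeR adjusted p = 0.111, also named after its values were seen). Ptgds, the prostaglandin D synthase gene typical of the leptomeninges, was the most abundant of all pathway genes and ran from 760 to 1540 CPM in controls and from 379 to 1240 CPM in DSS mice. Its log2 difference of -0.61 (SE 0.27) did not pass (adjusted p = 0.223). Ptgis, the prostacyclin synthase gene, had a log2 difference of 0.09 (SE 0.14; adjusted p = 0.816).

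Prostaglandin transport and breakdown genes gave 0 calls among 5. The most abundant per kilobase were the exporter gene Abcc4 and the carbonyl reductase gene Cbr3, with log2 fold changes of -0.04 and -0.14 (adjusted p = 0.918 and 0.516). Slco2a1, the prostaglandin uptake transporter gene, lay between 23.5 and 33.0 CPM in controls and between 29.5 and 50.9 CPM in DSS mice, all 6 above the control median (log2 difference 0.39, SE 0.13, adjusted p = 0.112). Ptgr2, a prostaglandin reductase gene, lay between 27.3 and 30.9 CPM in controls and between 24.1 and 27.7 CPM in DSS mice, 4 of 6 below every control (log2 difference -0.16, SE 0.06, adjusted p = 0.166). Slco2a1 and Ptgr2 were named after their values were seen. Prostanoid receptors gave 0 calls among 9. The most abundant were the receptor gene for prostaglandin F, Ptgfr, and its regulator Ptgfrn, with log2 fold changes of -0.06 and 0.07 (adjusted p = 0.837 and 0.761). The other lipoxygenases Alox8 and Aloxe3 lay under 1 CPM in every library and did not pass (adjusted p = 0.881 and 0.417).

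Markers of several myeloid cells moved with the risen genes, and in bulk tissue more cells of a type and more RNA per cell cannot be told apart. All 12 neutrophil markers rose, and their sum ran from 69.1 to 202 CPM in controls and from 263 to 1410 CPM in DSS mice. Of the 5 granulocyte precursor markers 5 rose (sum 2.82 to 8.89 and 12.1 to 93.8 CPM), of 6 monocyte markers 4 rose (168 to 194 and 229 to 436 CPM), and of 5 tested eosinophil markers among 7 listed 4 rose (3.52 to 7.88 and 8.45 to 24.4 CPM). The risen eosinophil markers were Epx, Prg2, Ear6 and Ear1. Ccr3 did not pass (log2 difference -0.34, edgeR adjusted p = 0.579). Siglecf and Il5ra could not be tested and reached at most 0.765 and 0.575 CPM, both in DSS mice. Border-associated macrophage markers gave 1 rise among 10 (649 to 744 and 600 to 1160 CPM) and mast cell markers 1 among 7 (143 to 202 and 152 to 342 CPM). No marker of these 6 lists was at 0 in every library. Log2 differences of the 12 neutrophil markers ran from 1.67 to 3.78, beside 0.67 for Alox5 and 0.93 for Alox5ap. DSS replicate 3 was lowest of its group in the neutrophil, granulocyte precursor, monocyte and eosinophil sums, but not in the macrophage or mast cell sums. Among the risen genes it was lowest in Alox5, Alox5ap, Ltb4r1, Fpr2, Mgst2 and Dpep2. It was not lowest in the risen genes Ptgs1 and Cyp4f18. It was also lowest in Ptgs2, Alox12, Alox15 and Ltc4s, which did not pass the test. DSS replicate 2 had the second-highest neutrophil sum of its group, at 1340 CPM, and was second lowest in Alox5 (11.4 CPM) and Alox5ap (17.7 CPM). The same library was lowest of its group in the macrophage (600 CPM), mast cell (152 CPM), fibroblast (10700 CPM) and bone (305 CPM) sums. Its eosinophil (24.4 CPM), endothelial (677 CPM), choroid plexus (7030 CPM) and skeletal muscle (172 CPM) sums were the highest of the group. DSS replicate 4 was highest of its group in the monocyte, macrophage and mast cell sums, where the first 2 lists share the gene F13a1. It was also highest in the fibroblast (20900 CPM), platelet (9.77 CPM) and colon epithelium (8.66 CPM) sums. It was not highest in the neutrophil, granulocyte precursor or eosinophil sums. Alox5 and Ptgs2 were highest in DSS replicate 4, while Alox5ap was highest in DSS replicate 5 and Ptgs1 in DSS replicate 6. The part of these cell types in the results was not tested.

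Beside the fall of Hpgd, 3 of 6 bone markers fell (sum 638 to 1340 CPM in controls and 305 to 1030 CPM in DSS mice), as did 1 of 8 fibroblast markers (11600 to 18300 and 10700 to 20900 CPM). The fallen bone markers were Ibsp, a bone matrix gene, and Acp5 and Ctsk, known as osteoclast genes. Bglap, the most abundant bone marker, did not pass (log2 difference -0.18, SE 0.33, adjusted p = 0.842), nor did Dmp1 and Sp7 (adjusted p = 0.129 and 0.964). The fallen fibroblast marker was Aldh1a2 (log2 difference -0.62, SE 0.12, adjusted p = 0.00874). Brain markers summed to 167 to 232 CPM in controls and 123 to 201 CPM in DSS mice, with 4 of 6 DSS libraries below every control. All 7 brain markers had a negative log2 difference and 0 passed the test, the nearest being Snap25 (log2 difference -0.59, SE 0.16, adjusted p = 0.0504). None of 6 endothelial or 6 choroid plexus markers changed by edgeR's test. Choroid plexus sums varied widely within both groups, from 234 to 6970 CPM in controls and from 292 to 7030 CPM in DSS mice. They were lowest in Control replicates 2 and 5 and DSS replicates 3 and 4. In each group the same libraries were lowest in Ltc4s (4.02 and 4.4 CPM, 5.22 and 6.03 CPM). The control with the highest plexus sum, replicate 4, was lowest in Hpgd. In the DSS group the highest, replicate 2, was not. Whether any of these cells had a part in the fall of Hpgd or in the Ltc4s values was not tested.

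The genes most like each changed member were ranked by Pearson's r of deviations from the group mean in log2 CPM, over 12 libraries and among 12922 other genes, which share their libraries and depth with the member. As the highest of so many, these values describe the libraries and carry no test. For Alox5 they were Foxm1, Ccl6 and Iqgap3 (r = 0.935, 0.934 and 0.923, Spearman's rho = 0.839, 0.846 and 0.888), and without the 2 libraries farthest from the median of Alox5 r was 0.828, 0.838 and 0.813. For Alox5ap they were Hist1h2ak, Agpat2 and Hist1h3c (r = 0.943, 0.923 and 0.921), where the histone genes are uncertain because near-identical copies can share reads. For Ptgs1 they were Ms4a14, Parp9 and Selp (r = 0.926, 0.916 and 0.911). For Hpgd they were S100b, Ppil3 and Cradd (r = 0.917, 0.878 and 0.870), and r for Cradd dropped to 0.668 without the 2 libraries farthest from the median of Hpgd.

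**Figure D4:**
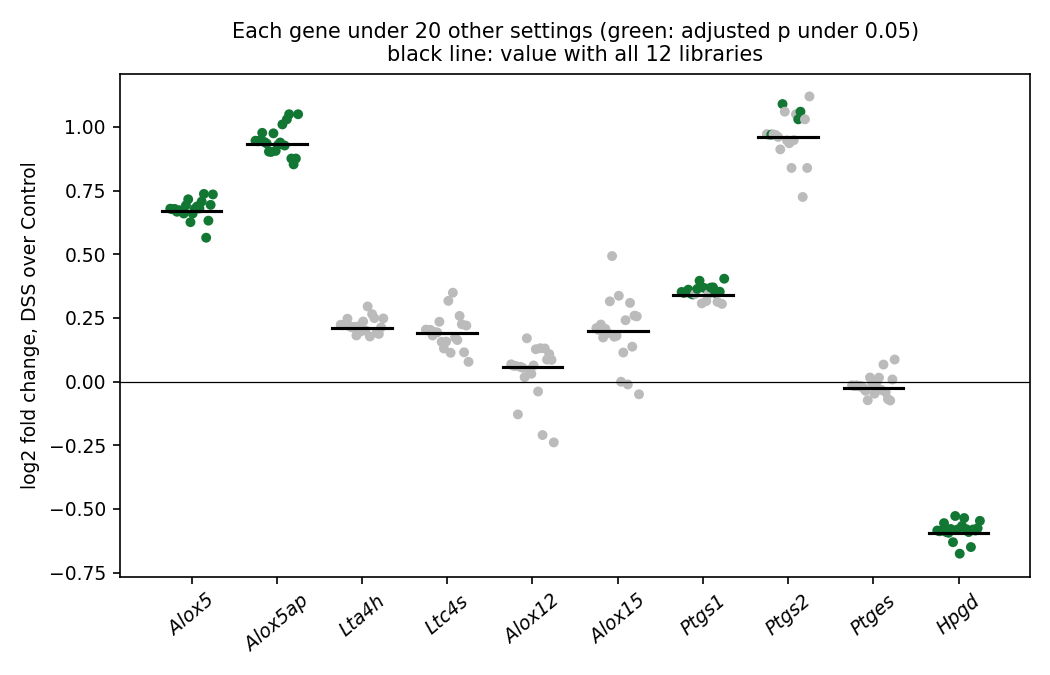
Log2 fold change of DSS over Control for each of the 10 genes under 20 other settings (points, green at an adjusted p under 0.05) and with all 12 libraries in the edgeR test (black line). Alox5, Alox5ap and Hpgd are green throughout, Ptgs1 and Ptgs2 are mixed, and Alox12, Alox15 and Ptges scatter on both sides of 0.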

How the data were processed

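Total RNA of the meninges was sequenced from 12 stranded libraries, 6 Control and 6 DSS, per the labels' protocols. The authors deposited raw whole-number counts for each gene symbol. Per the submitters' processing notes, CASAVA, FastQC, Trim Galore, HISAT2 and featureCounts were used with mm10; versions, annotation, strand setting and treatment of multi-mapping reads were not found in the sources used here. Antisense, overlapping and near-identical genes are therefore uncertain. Each column heading equals a sample's description label, and 0 columns belonged to no sample. A second, normalized table of the same libraries was not used.

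Genes were filtered with filterByExpr (minimum count 10, minimum total 15), scaled with TMM and tested with edgeR 4.0.16 in R 4.3.3 (glmQLFit, glmQLFTest, treatment as the only term, two-sided), with Benjamini-Hochberg adjustment over all 18593 genes. The standard error was derived as |log2 fold change| divided by sqrt(F), and 95% intervals use the normal quantile. These intervals are somewhat narrower than the F-test implies. For Cmklr1 the interval was 0.0126 to 0.51, although its unadjusted p by edgeR was 0.0584. TMM-scaled library sizes gave CPM; a prior count of 2 was added for logs. Lengths are the union of exons in GENCODE M21 (GRCm38, the assembly of mm10). The steps were tested on simulated data. Alternatives were DESeq2 1.42.0 (size factors, Wald test), limma 3.58.1 voom with quality weights, other filters, removal of ribosomal RNA features, the replicate number as a block, and libraries left out.

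The 10 genes and all lists were chosen with earlier results of these data known. Named were all 10 genes, called genes and the 2 most abundant per kilobase of each pathway list, and the 3 genes most like each called member (from genes whose average log2 CPM reached 1, leaving out predicted, Rik, mitochondrial and accession-style names). Outside this rule, Cysltr1, Tbxas1, Cbr1, Slco2a1 and Ptgr2 were named after their values were seen. So were single marker genes, such as Cdx2, Snap25, Dmp1, Sp7, Ccr3, Siglecf and Il5ra. Libraries of a group were distinct: over 30 pairs, chi-square per degree of freedom was at least 18.3, and Spearman correlations were 0.967 to 0.987. Because the labels do not state separate animals, p-values measure only the spread between these samples, which may be technical. The depth of 9312788 to 41869997 counts sets the counting error. The ribosomal RNA share was 12.5% ± 23.4 in Control and 0.653% ± 1.06 in DSS (SD, n = 6). An exact two-sided permutation test of group means over 924 splits gave p = 0.0801 for this share and p = 0.537 for total counts. With Control replicate 2 at 59.8% the spread of the share is wide, and the test cannot show that the groups were alike in it.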

Additional observations from a re-analysis of the deposited data

Results flagged for a closer look

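In a group of 6, a library was held to stand apart where its gap to the nearest other library exceeded Dixon's 95% limit; chance gives this in about 1 of 20 groups, and 52 groups of values were looked at. Of the 20 groups of member values, 1 stood apart: Alox12 in DSS replicate 2, at 4.70 CPM against 1.75 to 2.16 CPM in the other DSS mice. The same library had skeletal muscle markers at 172 CPM (10.2 to 23.5 CPM in the others) and a ribosomal RNA share of 2.76% (0.0430% to 0.698%). DSS replicate 3 stood apart low in neutrophil markers, at 263 CPM. Among controls, replicate 2 was high in neutrophil markers (202 CPM, others 69.1 to 112) and in ribosomal RNA (59.8%), replicate 3 in platelet markers (9.80 CPM, others 5.24 to 6.92), and replicate 5 in bone markers (1340 CPM, others 638 to 861). Colon epithelium markers stood apart in Control replicate 4 (5.27 CPM, others 1.84 to 2.88) and DSS replicate 4 (8.66 CPM, others 1.16 to 2.79).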

How the results depend on the processing

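The number of changed members was 4 in the main test and 3 to 5 under the 20 alternatives; with 1 library left out it was 3 to 5. Alox5, Alox5ap and Hpgd were called in all 20. With Control replicate 2 and DSS replicate 2 left out together, the 4 were Alox5, Alox5ap, Hpgd and Ptgs1. Over all tested genes 919 changed, 1551 with the DESeq2 Wald test, and 538 to 1379 with 1 library left out (leaving out DSS replicate 6 gave 538, DSS replicate 4 gave 559, Control replicate 5 gave 608 and DSS replicate 2 gave 1379). Pathway genes gave 5 calls, 3 with no filter except at least 1 count (where more genes were tested and Mgst2 and Dpep2 were at adjusted p = 0.0518 and 0.0696) and 4 to 6 with 1 library left out. Signs turned only in genes that were not called: Alox12 with limma-voom (-0.13) and with both replicates 2 left out (-0.24), where Alox15 was -0.05 and Ptges 0.0866. With 1 library left out, log2 fold changes ran from -0.21 to 0.17 for Alox12, from -0.0113 to 0.493 for Alox15 and from -0.0744 to 0.0667 for Ptges. Scaling by DESeq2 size factors moved the median log2 fold change of all genes by 0.01. Replicate numbers did not pair the mice (correlations of deviations of same-numbered mice from -0.19 to 0.15, and 0 of 6 controls correlated best with the DSS mouse of its own number), and with the replicate block 3 members changed, 708 genes over all and 5 pathway genes; Ptgs1 was then at a log2 fold change of 0.34 and adjusted p = 0.0647. Genes with few counts, such as Alox15 (from 10 per library), limit what could be called.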
